A study of Mus musculus with 6 samples.

Results

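The vacuolar proton pump and the cathepsins, the acidifier and the main proteases of the lysosome, were examined in RNA-seq libraries of mouse blastocysts. The set holds every gene whose symbol begins with Atp6v, which names the subunits of the pump, and every gene whose symbol is Cts followed only by letters or digits, which names the cathepsins; pseudogenes with -ps in their symbol were left out. This gave 46 of the 49993 genes in the deposited count table, of which 23 are Atp6v genes and 23 are Cts genes. The pump genes comprise 13 genes of the V1 part, 9 of the V0 part and Atp6v1fnb, a neighbour of Atp6v1f that is not counted as a subunit here. The Cts genes comprise 14 cathepsins and 9 genes of the rodent placental cathepsin group.

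The in vitro group (3 libraries) came from zygotes taken from the oviduct 19 to 21 h after human chorionic gonadotrophin (hCG) and cultured to blastocysts in drops of KSOM, a potassium-enriched medium, under oil at 37 °C and 5% CO2. The in vivo group (3 libraries) came from blastocysts flushed from the uterus on day 3.5. Mothers of either group were superovulated with 10 IU of PMSG, a mare serum gonadotrophin, and with 10 IU of hCG 48 h later, then mated naturally and divided between the groups at random. Blastocysts of both groups were picked by stage and morphology before freezing, and no source used here states the strain, the age of the mothers or that of the cultured blastocysts. Labels differ on the material, with a single inner cell mass in the descriptions, blastocysts in the design text and embryonic stem cells in a further label. No label says that the libraries of a group had different mothers, and the p-values therefore reflect only how these libraries vary, which may be partly technical.

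Library totals ran from 6918288 to 17643429 counts, so that 3 counts, the most that a count of 0 allows, corresponded to 0.215 to 0.525 CPM (counts per 1000000 of the scaled library total). Ribosomal RNA of Rn18s-rs5 made up 36.1%, 35.8% and 40.4% of counts in vitro and 16.7%, 22.2% and 41.7% in vivo. In vivo replicate 3 stood apart from in vivo replicates 1 and 2, with Spearman correlations across genes of 0.786 and 0.793 against 0.942 between those 2 libraries. In vitro replicate 2 was closer to in vivo replicates 1 and 2 (0.873 and 0.857) than to in vitro replicates 1 and 3 (0.848 and 0.824), and it is the library that lies inside the in vivo range for Atp6v0b and Ctsd below. In vitro replicate 2 had 1 count of Y-linked genes and 7494 of Xist, whereas Y-linked counts of the remaining libraries were 1139 to 1693. Xist had 56 and 16 counts in in vitro replicates 1 and 3, and 8, 25 and 341 in in vivo replicates 1, 2 and 3. Markers of both the epiblast and the trophectoderm were present in every library, with summed levels of 2078 to 3221 CPM in vitro and 2930 to 3760 CPM in vivo for the epiblast list, and of 1755 to 2929 CPM in vitro and 984 to 2031 CPM in vivo for the trophectoderm list. The labels of a pure inner cell mass or of stem cells therefore stand beside trophectoderm RNA. Summed primitive endoderm markers had 1184 to 2763 CPM in vitro and 709 to 1558 CPM in vivo. The part of cell composition in the results below was not tested, and in bulk libraries fewer cells of a type and less RNA per cell cannot be told apart.

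The vacuolar ATPase is a rotary motor. Its cytosolic V1 part hydrolyses ATP and turns a central rotor, and the membrane-bound V0 part uses that rotation to drive protons through a ring of proteolipid subunits into lysosomes, endosomes and secretory vesicles. The acid pH activates the cathepsins, which are made as inactive precursors and degrade proteins delivered by endocytosis and autophagy. Before implantation, autophagy and lysosomal degradation clear maternal proteins, and the trophectoderm and the endoderm take up proteins from their surroundings. The transcription factor TFEB and its relatives bind promoters of many lysosomal genes at a short palindrome that holds the E-box CACGTG.

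A minority of the members hold this E-box near a transcript start. The choice by symbol did not use it, but the palindrome is known from lysosomal genes. A raised share in a lysosomal set was thus likely beforehand. Copies of the E-box are shown for 6 genes whose values are described below. RefSeq promoter windows on GRCm38.p6, running from 250 bases before to 50 after a transcript start, were at hand for 36 of the 46 members. Some genes have windows at several transcript starts. CACGTG, which reads the same on both strands, occurred in 9 of these 36 (25%), against 8.09% of 27025 genes with a window. Among genes expressed highly enough to be tested it occurred in 7 of 16 members (43.8%), against 12% of 9263 genes. The longer palindrome with T before and A after the E-box occurred in 5 of the 36 members (13.9%), against 1.12% of the 27025 genes. Each sequence below reads 5′ to 3′ on the strand of the gene, with the E-box in capitals. A match describes the letters of the window and is not evidence of binding.
Atp6v1a: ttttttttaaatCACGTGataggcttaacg
Atp6v0d1: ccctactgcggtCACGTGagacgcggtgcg
Atp6v0e: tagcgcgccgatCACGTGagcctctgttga
Atp6v0b upstream copy: gtgcgcgggggtCACGTGgggtcggcgcat
Atp6v0b downstream copy: gggtcggcgcatCACGTGcgccggtcaggt
Ctsa upstream copy: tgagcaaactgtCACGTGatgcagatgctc
Ctsa downstream copy: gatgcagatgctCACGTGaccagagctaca
Ctsd: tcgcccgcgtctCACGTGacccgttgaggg

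The Atp6v1a copy lies at chr16:44139373-44139402 (minus strand), the Atp6v0d1 copy at chr8:105566050-105566079 (minus strand) and the Atp6v0e copy at chr17:26676387-26676416 (plus strand). The Atp6v0b copies lie at chr4:117887348-117887377 and chr4:117887330-117887359 (minus strand), the Ctsa copies at chr2:164833749-164833778 and chr2:164833766-164833795 (plus strand), and the Ctsd copy at chr7:142387908-142387937 (minus strand). Counted from 1 at the transcript start, with no position 0, the E-boxes of Atp6v0d1, Atp6v0e and Ctsa lie next to it, beginning at −3 in Atp6v0d1, at 4 in Atp6v0e and at −12 and 6 in Ctsa. Those of Atp6v1a and Ctsd begin farther upstream, at −131 and −98. For Atp6v1a and Ctsa, the start counted from lies inside the gene as the count table outlines it. Their copies thus lie downstream of the gene's outermost start, at chr16:44139702 for Atp6v1a and chr2:164832872 for Ctsa. All of these except the Atp6v0b copies carry the longer palindrome. The E-box was also found in the windows of Ctsl, Ctsf and Ctsll3, and a second Ctsd copy sits at the edge of its window. Genes with an E-box did not share a direction between the groups: Atp6v1a and Atp6v0d1 were higher in all 3 in vitro libraries, and Atp6v0e was lower in all 3.

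The comparison between the groups asks which pump and cathepsin transcripts differ after culture. Counts were seen in at least 1 library for 32 of the 46 members, and 14 had no count in any library. Of the members, 23 had enough counts to be tested, 15 pump genes and 8 cathepsins. Across all 14301 genes tested, edgeR's quasi-likelihood test called 0 genes at an adjusted p below 0.05 (0.0% called), and thus no member. At an unadjusted p below 0.05, 2 members were higher in vitro (Atp6v1a and Atp6v0d1) and 3 were lower (Ctsc, Atp6v0c and Atp6v0e), where 5.11% of all genes tested were higher, 5.08% lower and 10.2% either by the same measure. The groups did not overlap for 3 members higher in vitro (Atp6v1a, Atp6v0d1 and Ctsh) and 4 lower (Atp6v0c, Atp6v0e, Ctsc and Ctsb), where 9.27% of all genes tested were higher and 10.0% lower without overlap. DESeq2 called 1.65% of the 15775 genes it tested as higher and 1.35% as lower, and Ctsc was the only member among them.

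The summed level of the pump genes overlapped between the groups, and the sums of the V0 genes and of the cathepsins were smaller in each in vitro library than in any in vivo library. All Atp6v genes summed to 1140 ± 73.8 CPM in vitro and 1192 ± 160 CPM in vivo (SD, n = 3 each). The V1 genes summed to 697 ± 65.7 CPM in vitro and 567 ± 133 CPM in vivo. The V0 genes summed to 384, 555 and 390 CPM in vitro, against 675, 605 and 597 CPM in vivo, so that the groups did not overlap. The Cts genes summed to 739, 796 and 491 CPM in vitro, against 1047, 878 and 843 CPM in vivo, again without overlap. Both separations depended on single genes. The Cts sums overlapped once Ctsc was taken out, and the V0 sums once either Atp6v0c or Atp6v0e was. Medians of the log2 fold change, with positive values higher in vitro, were 0.12 for the 8 V1 genes tested, 0.01 for the 7 V0 genes and −0.55 for the 8 cathepsins, beside −0.01 for all genes tested. These medians rest on single libraries: that of the 15 pump genes was 0.11 over all libraries and −0.09 with in vivo replicate 3 left out, and that of the cathepsins was −1.10 when in vitro replicate 2 was left out and −0.13 when in vitro replicate 3 was.

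**Figure D1:**
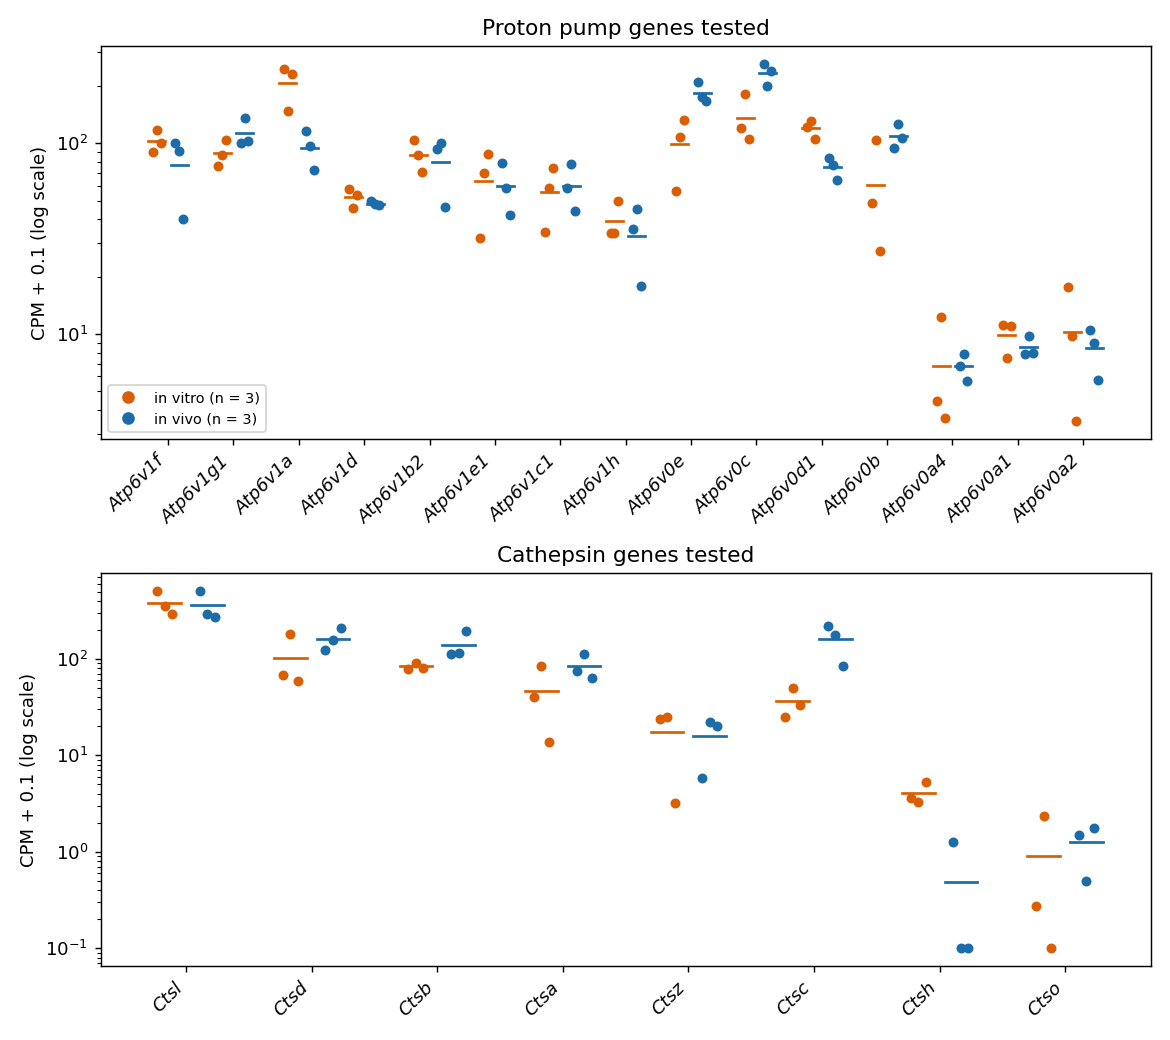
CPM per library (log scale, 0.1 added so that 0 can be drawn) of the 15 pump genes and 8 cathepsins tested, with 3 in vitro libraries (orange, left) and 3 in vivo libraries (blue, right) per gene and a line at each group mean. Atp6v1a and Atp6v0d1 sit higher in vitro and Atp6v0e, Atp6v0c, Ctsb and Ctsc lower in vitro without overlap, and the remaining genes overlap between the groups except Ctsh, which had no count in 2 in vivo libraries.

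Among V1 genes, the catalytic subunit was the one without overlap between the groups. Atp6v1a encodes subunit A, which binds and hydrolyses ATP, and lies at chr16:44085402-44139702. It had 1403, 2009 and 1770 counts in vitro and 1480, 1210 and 1017 counts in vivo, or 245, 147 and 230 CPM in vitro and 116, 96.6 and 72.8 CPM in vivo. The lowest in vitro library was above the highest in vivo library. Its log2 fold change was 1.13 ± 0.34 (SE), with an unadjusted p of 0.00834 and an adjusted p of 0.362 by edgeR's quasi-likelihood test. It had the same sign in 17 of 17 alternative settings, with adjusted p-values of 0.0966 to 0.869. Those settings reuse the same libraries, whose groups did not overlap, so the shared sign is not separate support. DESeq2 called Atp6v1a only with in vitro replicate 2 left out, at a log2 fold change of 1.35 and an adjusted p of 0.0383. That replicate was its lowest in vitro library, and the fit called 297 genes higher, against 260 by DESeq2 with every library kept.

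Its partner in the catalytic head overlapped between the groups. Subunit B has a ubiquitous form, Atp6v1b2, and a form of the kidney and inner ear, Atp6v1b1, and it alternates with subunit A in a ring of equal numbers. Atp6v1b2 had 104, 87.0 and 70.6 CPM in vitro and 93.7, 99.9 and 46.0 CPM in vivo, with a log2 fold change of 0.13 ± 0.38, and Atp6v1b1 had 2 counts in all, both in in vivo replicate 2. The ratio of Atp6v1a to Atp6v1b2 counts, which no library scaling can move, was 2.36, 1.69 and 3.27 in vitro and 1.23, 0.966 and 1.58 in vivo. The groups did not overlap in this ratio, which was chosen after the values were seen. It is not free of the trend with gene length described below, as the genes have 4394 and 2742 bases. With the offset on gene length, log2 fold changes were 1.01 for Atp6v1a and 0.26 for Atp6v1b2.

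The rotor and stalk subunits of V1 were expressed in every library and overlapped between the groups. Atp6v1f, a small rotor subunit, had the highest level per length of the V1 genes, at 161 ± 21.3 CPM per kilobase in vitro and 122 ± 51.5 in vivo. Its CPM was 90.1, 117 and 100 in vitro and 101, 91.0 and 39.8 in vivo, with a log2 fold change of 0.41 ± 0.39 (edgeR adjusted p = 0.772). In vivo replicate 3 was the single low library, and without it the log2 fold change was 0.10. Atp6v1g1, the common G subunit of the peripheral stalk, had 76.2, 87.3 and 104 CPM in vitro and 101, 136 and 103 CPM in vivo, with a log2 fold change of −0.35 ± 0.31 (edgeR adjusted p = 0.745). Only in vitro replicate 3 reached the in vivo range. A processed pseudogene, Gm13453, matches 357 bases of an Atp6v1g1 transcript at 99.4% identity and had 174, 642 and 354 counts in vitro and 720, 1035 and 576 counts in vivo. Reads of the 2 genes may be divided between them, so the Atp6v1g1 values are uncertain.

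The other V1 genes differed little on average. Atp6v1d, the D subunit of the rotor, had 45.8 to 57.4 CPM in vitro and 47.4 to 49.5 CPM in vivo, the narrowest ranges of the V1 genes tested. Atp6v1e1, of the peripheral stalk, had 31.7 to 88.3 CPM in vitro and 41.8 to 79.1 CPM in vivo. Atp6v1c1, which joins V1 to V0, had 34.1 to 73.9 CPM in vitro and 44.2 to 77.7 CPM in vivo, and Atp6v1h, a regulatory subunit that the working pump needs, had 33.8 to 49.98 CPM in vitro and 17.7 to 44.9 CPM in vivo. Log2 fold changes of these 4 genes ran from −0.12 to 0.26. The annotation lists Atp6v1e1 and Atp6v1c1 on a patch contig as well. The forms of restricted tissues were near or at 0: Atp6v1c2 had 13 counts and Atp6v1g2, a neuronal form, 15 counts over the 6 libraries, and the testis form Atp6v1e2 and the kidney form Atp6v1g3 had none. Of those with counts, Atp6v1c2 shares 65 exon bases with Pdia6 and Atp6v1g2 shares 946 with Nfkbil1, each on the opposite strand, and the library kit marks no strand.

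The V0 genes lay on both sides of 0. Atp6v0c encodes the c subunit of the proteolipid ring that carries the protons, and lies at chr17:24163865-24169678. It had 120, 182 and 106 CPM in vitro and 262, 201 and 240 CPM in vivo. Every in vitro library was below every in vivo library, with a log2 fold change of −0.78 ± 0.32 (unadjusted p = 0.0362, edgeR adjusted p = 0.460). Its values are uncertain because of a near-identical processed pseudogene. Atp6v0c-ps2 matches an Atp6v0c transcript at 99.8% identity over 465 bases and was given more counts than the gene itself in each library, 864, 2958 and 1096 in vitro and 4945, 3776 and 4377 in vivo, against 687, 2491 and 812 in vitro and 3349, 2519 and 3354 in vivo for Atp6v0c. No source used here states how reads that fit both were counted. With Atp6v0c and its pseudogenes summed, the log2 fold change was −0.89 (edgeR adjusted p = 0.403).

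Atp6v0e and Atp6v0b showed lower means as well. Atp6v0e, a small membrane subunit at chr17:26676396-26699647, had 56.5, 108 and 132 CPM in vitro and 210, 174 and 166 CPM in vivo. The groups did not overlap, and the log2 fold change was −0.89 ± 0.37 (unadjusted p = 0.0375, edgeR adjusted p = 0.463). By the mean over all libraries it had the highest level per length among V0 genes, 124 ± 48.6 CPM per kilobase in vitro and 230 ± 29.2 in vivo. Atp6v0b, the second kind of ring proteolipid, had 48.8, 104 and 27.3 CPM in vitro and 94.9, 126 and 107 CPM in vivo. In vitro replicate 2 lay within the in vivo range and the other in vitro libraries below it, and the log2 fold change was −0.86 ± 0.47 (edgeR adjusted p = 0.580). With in vitro replicate 2 left out, DESeq2 called Atp6v0b lower, at a log2 fold change of −1.50 and an adjusted p of 0.0442. That fit drops the only in vitro library inside the in vivo range, so the call is not separate support. Across all genes the fit called 558 lower, against 213 by DESeq2 with every library kept.

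The d subunit lay on the other side from the ring proteolipids. Atp6v0d1, which couples the rotor to the ring and is the ubiquitous d form, lies at chr8:105524461-105566064. It had 123, 131 and 106 CPM in vitro and 83.6, 76.8 and 64.1 CPM in vivo, without overlap. The log2 fold change was 0.68 ± 0.30 (unadjusted p = 0.0474, edgeR adjusted p = 0.485). Its counts were 1.02, 0.717 and 1.00 times those of Atp6v0c in vitro and 0.320, 0.382 and 0.267 times in vivo. These ratios, also chosen after the values were seen, need no scaling between libraries, and the 2 genes have lengths of 1650 and 1523 bases in the table. Counts given to Atp6v0c-ps2 are left out of them, so the size of these ratios, and of the V0 shares that follow, is uncertain. Per length, Atp6v0d1 made up 28.0%, 19.2% and 19.9% of the V0 transcripts in vitro, against 9.12%, 9.53% and 8.06% in vivo. The d2 form, known from osteoclasts and kidney, had no count in any library.

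**Figure D2:**
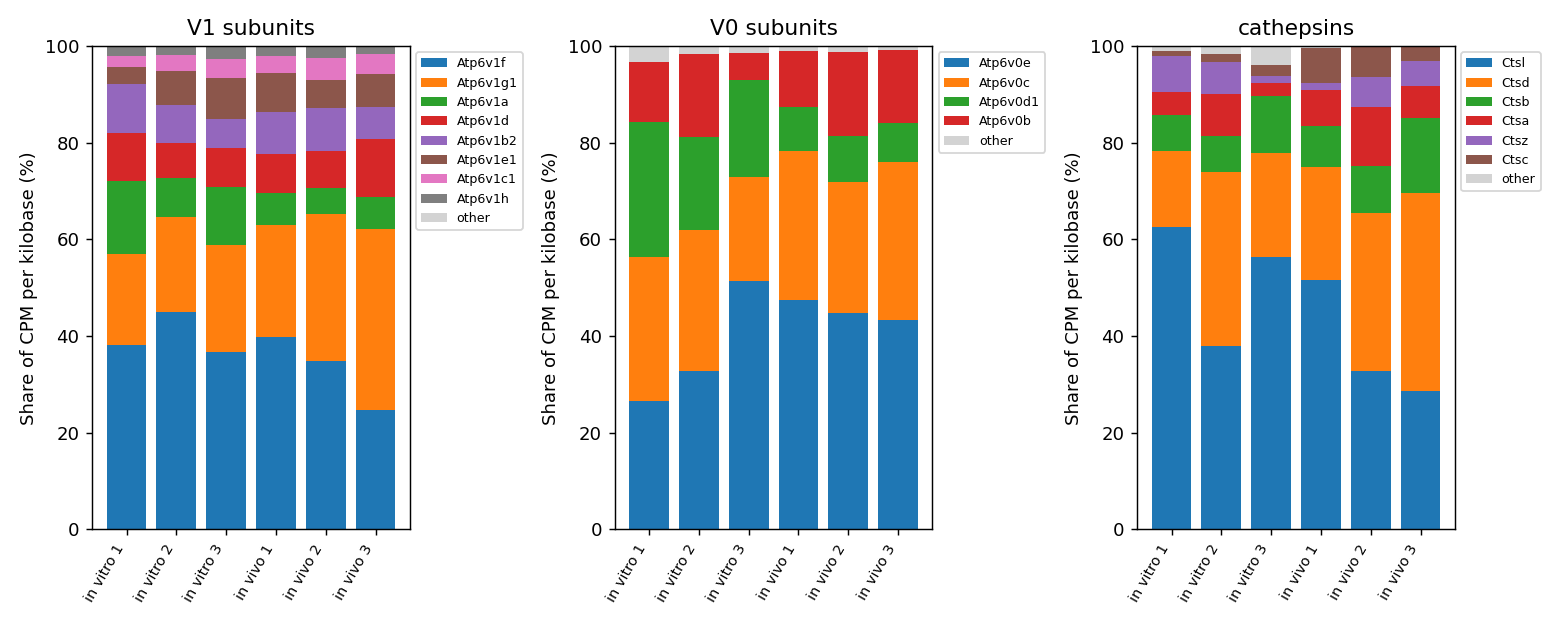
Share of each gene in the summed CPM per kilobase of its group (percent), for V1 subunits, V0 subunits and all Cts genes, in the 3 in vitro libraries (left) and the 3 in vivo libraries (right); genes of small share are drawn as other. The Atp6v0d1 band is wider in each in vitro library (19.2% to 28.0%) than in any in vivo library (8.06% to 9.53%), and the Ctsc band is wider in each in vivo library. Counts given to the Atp6v0c pseudogenes are not part of the V0 shares.

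The a subunits, which hold the proton path beside the ring and differ in the membranes they serve, were the scarcest tested part of the pump. Atp6v0a1 had 7.39 to 11.02 CPM in vitro and 7.73 to 9.66 CPM in vivo. Atp6v0a2 had 3.38 to 17.5 CPM in vitro and 5.66 to 10.5 CPM in vivo. Atp6v0a4, known from kidney, had 3.51 to 12.2 CPM in vitro and 5.58 to 7.74 CPM in vivo. Together with Tcirg1, which encodes the a3 form and had 0, 8 and 0 counts in vitro and 4, 35 and 10 counts in vivo, the per-length shares of a1, a2 and a4 were 30.9%, 27.2% and 35.7% in vivo on average. In vitro the shares varied more between libraries, from 21.2% to 57.1% for a1, from 16.0% to 47.5% for a2 and from 19.3% to 51.4% for a4. Log2 fold changes of the a subunits were 0.21 for a1, 0.29 for a2 and 0.01 for a4, with standard errors of 0.61, 0.74 and 0.79. Atp6v0e2, the second form of the e subunit, had 38 counts over the 6 libraries and was not tested.

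Among the cathepsins, Ctsc had the smallest p of the 23 members tested. Cathepsin C is a dipeptidyl peptidase that removes pairs of residues from protein ends and, in immune cells, activates granule serine proteases. Its gene lies at chr7:88278024-88315861 and had 144, 686 and 257 counts in vitro, against 2800, 2216 and 1190 counts in vivo. This was 25.2, 50.2 and 33.5 CPM in vitro and 219, 177 and 85.2 CPM in vivo. Every in vitro library was below every in vivo library, and in vivo replicate 3 was the lowest of its group. The log2 fold change was −2.14 ± 0.44, with an unadjusted p of 0.000916 and an adjusted p of 0.306 by edgeR's quasi-likelihood test over all genes tested.

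The call for Ctsc depended on the tool. DESeq2, which the submitters list among their tools, called it lower, at −2.13 ± 0.50 with an adjusted p of 0.00304, and so did limma-voom (adjusted p = 0.0408), which called 0.273% of genes tested as lower, and edgeR with no filter on low counts (adjusted p = 0.000293). Over the alternative settings its adjusted p ran from 0.000293 to 0.869 and its log2 fold change from −2.52 to −1.87. With each library left out in turn DESeq2 called Ctsc in 4 of 6 fits, but not when in vivo replicate 1 (adjusted p = 0.0566) or in vivo replicate 2 (0.0665) was absent. The ratio of Ctsc to Ctsl counts was 0.0503, 0.141 and 0.116 in vitro and 0.429, 0.601 and 0.314 in vivo, so the separation did not need a scaling between libraries.

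Markers of other cells that could be near an embryo were set beside Ctsc, and their part in the Ctsc result was not tested. Of the 12 macrophage and leukocyte markers, 7 had no count in any library, Ptprc, Adgre1 and Lyz2 among them. The list summed to 8.05 to 103 CPM in vitro and 0 to 5.86 CPM in vivo, and this order came from Laptm5, with 581, 92 and 53 counts in vitro and 24, 0 and 0 counts in vivo. Without Laptm5 the sum was 1.05, 1.32 and 1.95 CPM in vitro and 3.98, 4.55 and 0 CPM in vivo, so that in vivo replicates 1 and 2 were above every in vitro library. The lysosomal macrophage marker Cd68 had 5, 3 and 0 counts in vitro and 40, 15 and 0 counts in vivo, and the complement gene C1qa had 0, 11 and 0 counts in vitro and 11, 42 and 0 counts in vivo. In vivo replicate 3 had none of either, and counts this low cannot tell which cells the Ctsc RNA came from.

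Uterine epithelium markers summed to 133 to 257 CPM in vitro and 86.4 to 160 CPM in vivo, with 5 of 11 at 0, Ltf and Pgr among them, and Klf5, which the trophectoderm also expresses, made up most of the sum. Muc1 of the same list, a mucin of epithelial surfaces, had 1, 36 and 1 counts in vitro and 132, 58 and 215 counts in vivo, lower in each in vitro library as Ctsc was (log2 fold change −3.29, unadjusted p = 0.0285, edgeR adjusted p = 0.440). Foxa2, also a primitive endoderm marker, went the other way, with 196, 54 and 22 counts in vitro and 0, 0 and 0 in vivo. Of 3 genes tested in the uterine list, 2 (Klf5 and Foxa2) were higher and 1 (Muc1) lower at an unadjusted p below 0.05 by edgeR. Of all genes tested, 5.11% were higher and 5.08% lower by this measure. Klf5 and Foxa2 are also markers of embryonic lineages, so the count does not describe uterine cells alone. Summed cumulus and granulosa cell markers had 0.525 to 5.56 CPM in vitro and 8.12 to 15.01 CPM in vivo, with 6 of 11 at 0, and Amhr2 gave most of the in vivo sum.

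Ctsl had the highest CPM of all members by the mean over libraries, whereas per length it was below Atp6v0e, Atp6v1f and Atp6v0c, and its groups overlapped. Cathepsin L is a cysteine endopeptidase of lysosomes. Ctsl had 501, 356 and 289 CPM in vitro and 509, 294 and 272 CPM in vivo, with closely matched ranges. The log2 fold change was 0.09 ± 0.35 (edgeR adjusted p = 0.956), and leaving out in vivo replicate 1 gave 0.42 and leaving out in vitro replicate 1 gave −0.14. Per length, Ctsl made up 62.6%, 37.9% and 56.3% of Cts transcripts in vitro and 51.7%, 32.9% and 28.7% in vivo.

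Ctsd and Ctsb followed in level. Ctsd, the main aspartic protease of lysosomes, had 67.3, 181 and 59.2 CPM in vitro and 123, 157 and 208 CPM in vivo. In vitro replicates 1 and 3 were below the whole in vivo range and in vitro replicate 2 was inside it. The log2 fold change was −0.66 ± 0.47 (edgeR adjusted p = 0.670), and −1.37 without in vitro replicate 2. Ctsb, a cysteine protease that also trims peptides from their end, had 78.0, 91.6 and 81.2 CPM in vitro and 112, 114 and 193 CPM in vivo, without overlap. Its log2 fold change was −0.74 ± 0.33 (unadjusted p = 0.0516, edgeR adjusted p = 0.493), and −0.43 without in vivo replicate 3, the highest library. Ctsb shares 774 exon bases with Fdft1 on the opposite strand, which had 24, 196 and 75 counts in vitro and 145, 178 and 173 counts in vivo, against 446, 1252 and 624 in vitro and 1428, 1433 and 2700 in vivo for Ctsb.

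The remaining cathepsins tested were Ctsa, Ctsz, Ctsh and Ctso. Ctsa, a serine carboxypeptidase that also protects lysosomal galactosidase and neuraminidase, had 40.6, 84.7 and 13.8 CPM in vitro and 75.4, 113 and 63.7 CPM in vivo, with a log2 fold change of −0.86 ± 0.58. It shares 495 exon bases with Pltp and 325 with Neurl2 on the opposite strand. Ctsz, a carboxypeptidase, had 3.12 to 24.7 CPM in vitro and 5.78 to 22.1 CPM in vivo. Ctsh, an aminopeptidase, had 20, 44 and 40 counts in vitro and 15, 0 and 0 counts in vivo, so the groups did not overlap but all counts were low (log2 fold change 3.31 ± 1.80, unadjusted p = 0.0981, edgeR adjusted p = 0.574). Its DESeq2 call without in vivo replicate 1 (adjusted p = 0.00484) compares those in vitro counts with in vivo libraries at 0. Ctso had 0 to 31 counts per library.

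Several cathepsins of specialised cells were scarce or at 0. Ctsf, a cysteine protease, had 32 counts over the 6 libraries, 23 of them in in vitro replicate 3. Ctsw, of cytotoxic lymphocytes, had 14 counts, all in vitro, and Ctsk, the collagenase of osteoclasts, had 6 counts, all in vivo. Ctss, of antigen-presenting cells, Ctsg, of neutrophil granules, and Ctse, an aspartic protease of stomach and immune cells, had none.

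The placental cathepsins form a rodent gene cluster on chromosome 13 near Ctsl and are known from the trophoblast of the later placenta. Of these 9 genes, 7 had no count in any library (Cts3, Cts6, Cts7, Ctsj, Ctsm, Ctsq and Ctsr), and none was tested. Ctsll3 had 28 counts in in vitro replicate 2, or 2.05 CPM, and 0 in each of the other 5 libraries. Cts8 had 0, 2 and 6 counts in vitro and 2, 0 and 2 counts in vivo. A count of 0 in a library allows a level of up to 0.215 to 0.525 CPM, depending on its depth.

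**Figure D3:**
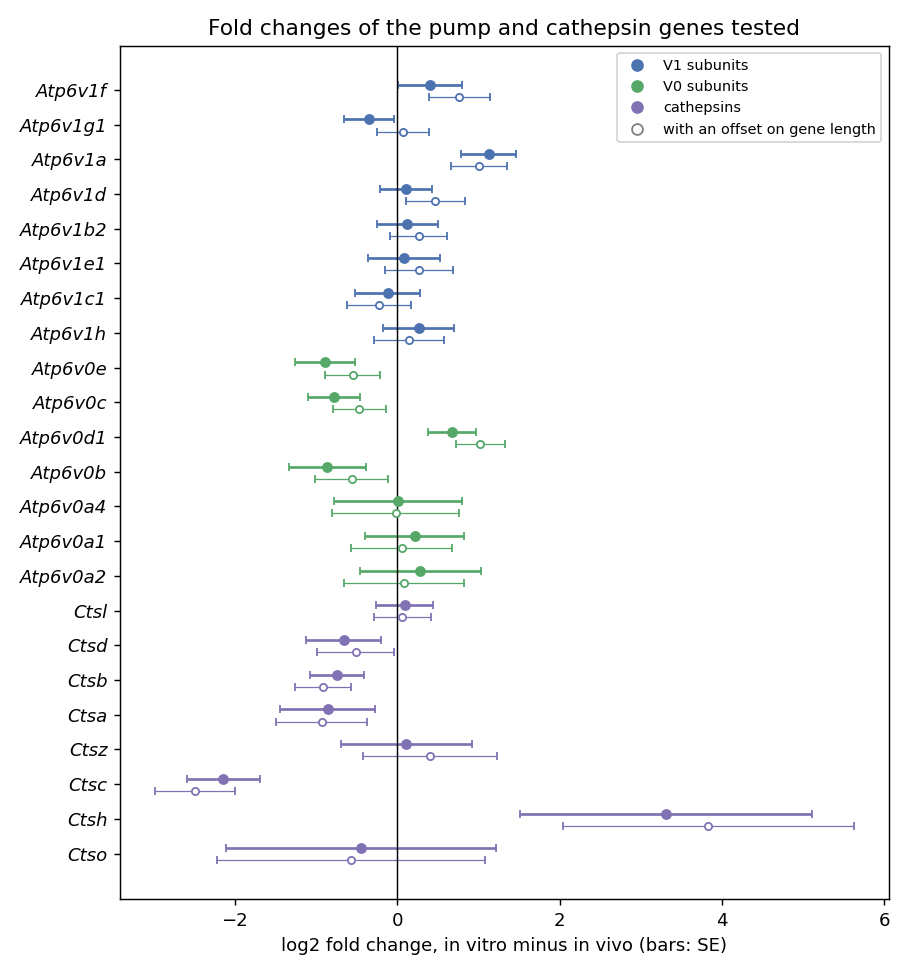
Difference in vitro minus in vivo, as log2 fold change, of the 23 members tested, with bars of 1 standard error, from edgeR (filled) and from edgeR with an offset on gene length (open), coloured by V1, V0 and cathepsin genes. Ctsc lies farthest left at −2.14, Atp6v1a and Atp6v0d1 lie right of 0 and Atp6v0e and Atp6v0c left of 0 in both fits, and Ctsh has the widest bar.

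Fold changes followed gene length across all genes, and the members were read against that trend. Among the 8156 genes tested with a mean of at least 10 CPM, the Spearman correlation of log2 fold change with gene length was 0.33, a description across genes that share the same 6 libraries. This correlation was 0.27 over all 14301 genes tested, and only 0.05 over the 23 members tested. The median log2 fold change was −0.25 for genes under 1000 bases and −0.33 for those from 1000 to under 2000 bases, and it was 0.28 from 4000 to under 8000 bases and 0.35 from 8000 bases. Atp6v0e (797 bases) and Atp6v0c (1523 bases) are short, and with an offset that removes the trend their log2 fold changes were −0.55 and −0.47, against −0.89 and −0.78 without it. Atp6v1g1 (1093 bases) had 0.07 with the offset, against −0.35 without it. Atp6v0d1 (1650 bases) and Ctsc (11142 bases) ran against the trend for their lengths, and with the offset they had 1.02 and −2.49. Atp6v1a (4394 bases) had 1.01 with the offset. What the length trend comes from was not tested.

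**Figure D4:**
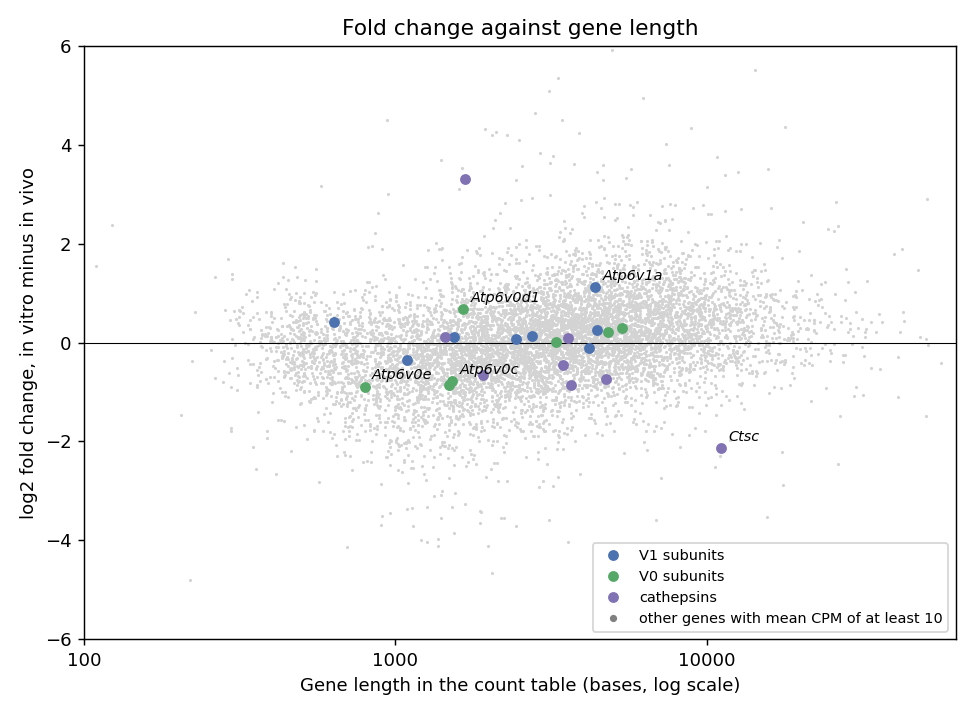
Log2 fold change, positive when higher in vitro, against gene length in the count table (bases, log scale) for the members tested (coloured) and the other genes with a mean of at least 10 CPM (grey); 18 such genes lie outside the axes. Grey points drift upward with length, Atp6v0e and Atp6v0c lie among short genes with values below 0, Atp6v0d1 lies above 0 among genes of like length, and Ctsc lies near −2 among long genes.

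Genes that build and regulate the pump were mostly higher in vitro by value, with no call. Of 14 accessory, assembly and regulatory genes tested, 11 had positive and 3 negative log2 fold changes. Their median was 0.47, beside −0.01 for all genes tested. At an unadjusted edgeR p below 0.05, 3 were higher and 1 lower, beside 5.11% and 5.08% of all genes tested. Rnasek, a small subunit associated with the pump, had 36.0, 88.9 and 31.5 CPM in vitro and 161, 199 and 106 CPM in vivo, with a log2 fold change of −1.57 ± 0.47 (edgeR adjusted p = 0.362). Wdr7, a partner of the rabconnectin complex that assembles the pump, had 23.3, 10.6 and 19.4 CPM in vitro and 4.61, 7.18 and 2.58 CPM in vivo, with a log2 fold change of 1.89 ± 0.66 (edgeR adjusted p = 0.415). Ncoa7, which binds the V1 part, had 3.498, 5.63 and 9.63 CPM in vitro and 1.87, 0.559 and 0.286 CPM in vivo. Each of these 3 genes, named for their small p, was without overlap between the groups. Of all genes tested, 9.27% were higher and 10.0% lower without overlap. The genes higher at an unadjusted p below 0.05 were long, Wdr7 with 7348, Ncoa7 with 9961 and Dmxl1 with 12795 bases, and the length trend puts genes of such length above 0. With the offset on gene length the list had 9 positive and 5 negative values and a median of 0.37, beside 0.04 for all genes tested, and Wdr7, Ncoa7 and Dmxl1 had 1.61, 2.44 and 1.00. Rnasek, short at 1244 bases, had −1.19 with the offset.

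Among regulators of lysosomal genes, Tfeb itself had 28.2, 45.8 and 46.3 CPM in vitro and 24.4, 10.9 and 9.52 CPM in vivo, with a log2 fold change of 1.42 ± 0.50 (edgeR adjusted p = 0.415). Rragd, a GTPase that recruits the nutrient sensor mTORC1 to lysosomes, had 139, 63.1 and 189 CPM in vitro and 53.8, 30.4 and 16.0 CPM in vivo. Its log2 fold change was 1.96 ± 0.54 (edgeR adjusted p = 0.350), and DESeq2 called it (adjusted p = 0.0398). Fnip1, a folliculin partner in the same pathway, had a log2 fold change of 1.04 ± 0.42. Of the 17 genes tested in this list, 13 were positive and 4 negative, with a median of 0.52. At an unadjusted edgeR p below 0.05, 3 were higher and 0 lower, beside 5.11% and 5.08% of all genes tested. With the offset on gene length the median was 0.81, with 15 positive and 2 negative, and Tfeb and Rragd had 1.20 and 1.79. The 15 pump genes tested had 10 positive and 5 negative values and a median of 0.11.

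Other lysosomal hydrolases and membrane proteins had more negative than positive values, as the cathepsins did. Of 32 other hydrolases and activators tested, 11 were positive and 21 negative, with a median of −0.30. The acid glucosidase gene Gaa had 8.57, 16.2 and 13.1 CPM in vitro and 25.7, 51.9 and 59.4 CPM in vivo, and DESeq2 called it lower (adjusted p = 0.0232). The mannosidase gene Manba had 45.8, 14.6 and 22.3 CPM in vitro and 2.97, 1.36 and 0 CPM in vivo, and the acid phosphatase gene Acp2 had 18.2, 10.4 and 14.8 CPM in vitro and 4.06, 3.91 and 4.94 CPM in vivo; DESeq2 called both higher (adjusted p = 0.00590 for Manba and 0.0448 for Acp2). edgeR called none of these 3. Of all genes that DESeq2 tested, it called 1.65% higher and 1.35% lower. Of 23 lysosomal membrane genes tested, 7 were positive and 16 negative, with a median of −0.30. At an unadjusted edgeR p below 0.05, 0 were higher and 3 lower, beside 5.11% and 5.08% of all genes tested. The 3 lower genes were Laptm4b, Tmem192 and Ostm1, at −1.38, −1.08 and −1.30. Sorting genes, which carry hydrolases to lysosomes, had 8 positive and 9 negative among 17 tested, with a median of −0.02, and Ap1s1 of the adaptor complex had −1.06 ± 0.40. With the offset on gene length the medians were −0.36 for the hydrolases, −0.43 for the membrane genes and −0.03 for the sorting genes.

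Inhibitors of cathepsins had few tested genes. Of 5 tested, 2 were positive and 3 negative, with a median of −0.18. Cst7, the inhibitor cystatin F, whose targets include cathepsin C, had 0, 29 and 0 counts in vitro and 169, 94 and 141 counts in vivo, without overlap. Its log2 fold change was −3.74 ± 1.52 (unadjusted p = 0.0359, edgeR adjusted p = 0.460), and its low in vitro counts make that size uncertain. Cst7 and Ctsc thus were both lower in each in vitro library than in any in vivo library, while Cst3, a secreted cystatin with 66.1 ± 46.7 CPM in vitro and 104 ± 13.6 CPM in vivo, overlapped.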

How the data were processed

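Raw counts per gene in 6 libraries were used as the authors deposited them, in the layout of featureCounts; the aligner, counter, annotation and strand setting are not stated in the sources used. RNA came from a microscale kit and libraries from a transposase-based kit, per the labels' protocols. FastQC 0.11.2, DESeq2 and the build GRCm39 appear in the submitters' processing notes. Gene coordinates in the deposited table, however, equal RefSeq on GRCm38.p6 for 46 of 46 members and 49585 of 49624 genes compared, so GRCm38 is given. Gene length is the deposited length in bases.

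Groups follow the sample titles. edgeR 4.0.16 (R 4.3.3) filtered low counts by group, scaled by TMM and tested 14301 genes with the two-sided quasi-likelihood test in its legacy form with robust moderation, Benjamini-Hochberg adjusted, threshold 0.05; the common biological coefficient of variation was 0.727. CPM uses TMM-scaled totals. DESeq2 1.42.0 and limma 3.58.1 (voom with quality weights) were alternatives. Scripts were tested on simulated data. On counts simulated with the spread of these libraries, DESeq2 made 81 false calls, edgeR 7 and limma-voom 2. Of genes changed 4-fold, all with a mean of at least 10 CPM, they recovered 56%, 34% and 34%. Each simulated gene had the same spread in every library, so uneven libraries were not imitated. Copies of members were sought with BLASTN 2.17.0 in GENCODE transcripts, with at least 95% identity over 300 bases. Reads carry no molecular identifiers, so limits cover counting error only.

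Members and gene lists were chosen with earlier results of these data known. Named with full values are members with an unadjusted p below 0.05, the 3 highest per length in each family, and up to 3 genes of smallest p per list; other members are given by level or range, and genes named as copies, overlaps or markers, with Lyz2, Cst3 and the count ratios, were added after their values were seen.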

Additional observations from a re-analysis of the deposited data

How the results depend on the processing

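Of all genes tested, edgeR called 0, against 1458 at an unadjusted p below 0.05. DESeq2 called 473 (260 higher and 213 lower), limma-voom 102 (63 higher and 39 lower), edgeR's newer quasi-likelihood form 3, and edgeR with no filter on low counts 391 (183 higher and 208 lower). With 1 library left out, edgeR called 0 in each of 6 fits and DESeq2 called 152 to 938: 264, 855 and 373 without in vitro replicates 1, 2 and 3, and 310, 152 and 938 without in vivo replicates 1, 2 and 3. Pump genes called numbered 0 in all settings except DESeq2 without in vitro replicate 2 (2 genes, Atp6v1a and Atp6v0b). Cathepsins called numbered 0 by edgeR and 1 by DESeq2, by limma-voom and with no filter, each time Ctsc. DESeq2 with 1 library left out called 0 to 1, and the gene called without in vivo replicate 1 was Ctsh. The length offset (for lists too), the DESeq2 fits with a library left out and the sum of Atp6v0c with its pseudogenes were chosen after seeing the data.

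Direction turned for Atp6v1g1 with the length offset (0.068) and for Ctsl when libraries were scaled by totals alone (−0.31). Ctsl ran from −0.14 to 0.42 with 1 library left out. Scaling by totals alone moved the median of all genes to −0.31, and the pump median to −0.24, while the cathepsin median was −0.66; limma-voom gave a pump median of −0.07. The cause was not tested. Libraries with the same replicate number did not deviate together (correlations of −0.10, 0.10 and −0.04), so the numbers were not taken as pairs; with the replicate number as a block, edgeR called 0 genes, 0 pump genes and 0 cathepsins.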
